A study of Mus musculus with 2 samples.

Results

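Polyamine metabolism was described through 10 genes of the mouse gastrocnemius, the large calf muscle: Odc1, Amd1, Amd2, Srm, Sms, Smox, Sat1, Oaz1, Oaz2 and Azin1. They were taken by symbol, a rule that uses no measured value, and all 10 were found among the 55536 annotated genes of the tables. Total RNA was sequenced from the muscle of 2 female B6CASTF1/J mice aged 2 months, called animal 1 and animal 2. These are F1 hybrids of the B6 and CAST strains. Each library started from 300 ng of RNA, and ERCC spike-in RNA was added to it. Both mice form 1 untreated group, so no condition was compared and no p-value was computed. The labels number the mice separately but give them 1 donor record, and the spread between the libraries may therefore be technical. The gene tables held 45014831 expected counts in animal 1 and 47771308 in animal 2.

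Putrescine, spermidine and spermine are small positively charged molecules that bind nucleic acids and that cells need for growth and translation. Ornithine decarboxylase, Odc1, makes putrescine, and S-adenosylmethionine decarboxylase, Amd1, supplies the aminopropyl groups that Srm and Sms add in turn to give spermidine and spermine. Sat1 acetylates polyamines for export or oxidation, and Smox oxidises spermine back to spermidine. The antizymes Oaz1 and Oaz2 bind Odc1 protein and send it to the proteasome without ubiquitin, and the antizyme inhibitor Azin1 binds the antizymes and releases Odc1. In mouse muscle, androgens are known to raise Odc1 and Amd1, and Smox has been linked to fibre size.

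Antizyme protein is made only when the ribosome shifts by a base at a stop codon inside the reading frame, a step that polyamines promote. The stretches around this stop are shown because the transcript models of both genes differ exactly there. In mm10 (GRCm38) with the GENCODE M21 annotation, the Oaz1 stretch covers chr10:80828262-80828323 on the plus strand. Oaz1-205 holds the site as the genome has it, Oaz1-207 leaves out 1 base and Oaz1-201 leaves out 4. The Oaz2 stretch covers chr9:65686239-65686300 on the plus strand, where Oaz2-207 is unbroken, Oaz2-206 leaves out 1 base and Oaz2-201 leaves out 4. Capitals mark the stop codon, or what each model keeps of it.
Oaz1-205: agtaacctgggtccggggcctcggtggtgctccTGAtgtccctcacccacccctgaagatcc
Oaz1-207: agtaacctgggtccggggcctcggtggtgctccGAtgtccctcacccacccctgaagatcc
Oaz1-201: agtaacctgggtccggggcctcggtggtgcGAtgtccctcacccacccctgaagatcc
Oaz2-207: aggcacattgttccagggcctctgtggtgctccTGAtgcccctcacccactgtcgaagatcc
Oaz2-206: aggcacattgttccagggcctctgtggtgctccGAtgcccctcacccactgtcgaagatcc
Oaz2-201: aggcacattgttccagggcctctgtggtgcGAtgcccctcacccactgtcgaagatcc
The unbroken stretches of the antizymes matched at 50 of 62 bases (80.6%), with an unbroken match of 15 bases across the stop codon.

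Amd1 and Amd2 are shown together because most of their reads could belong to either. Amd1 lies at chr10:40287458-40302186 on the minus strand and is spliced, whereas Amd2 lies at chr10:35708675-35711892, also on the minus strand, as a single exon. The transcripts Amd1-201 (3204 nt) and Amd2-201 (3218 nt) aligned with 3190 identical columns of 3218 (99.1%), with 14 substitutions and 14 gap columns. Their coding parts were identical at 1001 of 1002 bases. The exception was G796C, where the first letter is the base of Amd1, the last that of Amd2, and positions count from 1 at the first coding base. The lines give coding bases 766 to 825, from chr10:40290157-40290216 for Amd1 and chr10:35710735-35710794 for Amd2, with the differing base in capitals.
Amd1-201: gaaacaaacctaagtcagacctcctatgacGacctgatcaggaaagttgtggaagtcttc
Amd2-201: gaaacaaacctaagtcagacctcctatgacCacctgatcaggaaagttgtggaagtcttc
Both transcripts also carry the same short reading frame of 21 bases ahead of the coding start, at chr10:40302155-40302175 in Amd1 and at chr10:35711860-35711880 in Amd2. In mammalian AMD1 this frame is known to slow translation when polyamines are plentiful. Start and stop codons are in capitals.
Upstream reading frame of Amd1 and Amd2: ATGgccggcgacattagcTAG

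In mm10, Odc1 lies at chr12:17544794-17551505, Srm at chr4:148591503-148594993, Smox at chr2:131491496-131525922, Oaz1 at chr10:80826656-80829290 and Oaz2 at chr9:65668001-65690300, all on the plus strand. Azin1 lies at chr15:38487427-38519266, Sat1 at chrX:155213132-155216449 and Sms at chrX:157443855-157492287, all on the minus strand.

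All 10 genes were expressed, and RNA of the antizymes made up most of the total. Each of the 10 reached 1 TPM (a level per transcript length, with a fixed sum over all transcripts) in both animals, against 46.5% of all protein-coding genes. Together they summed to 463 TPM in animal 1, against 402 in animal 2, or 432 ± 43.0 TPM (SD, n = 2). Set against the sum over nuclear protein-coding genes, this was 0.121% and 0.108%. Oaz1 and Oaz2 held 68.0% of the sum in animal 1 and 69.5% in animal 2. The enzymes of synthesis (Odc1, Amd1, Amd2, Srm and Sms) held 22.5% and 20.7%, and Sat1 with Smox held 5.83% and 6.21%. Mean levels spanned 224.6 TPM for Oaz1 to 5.41 TPM for Srm, which ranked 206th and 6296th among 22015 nuclear protein-coding genes. The median detected protein-coding gene stood at 8.06 TPM in animal 1, against 7.39 in animal 2, so 8 of the 10 genes lay above it in both, Sat1 lay above it in animal 1 only and Srm lay below it in both.

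**Figure D1:**
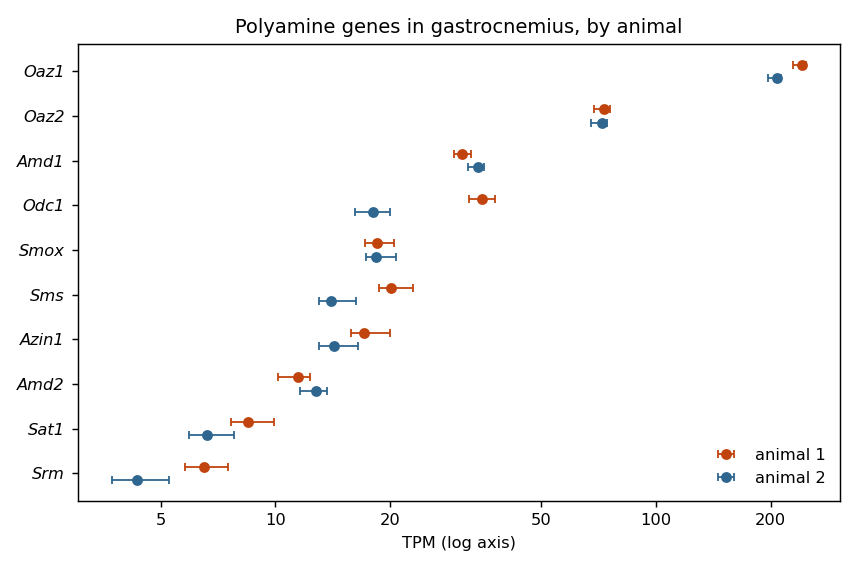
Levels of the 10 genes on a log axis in TPM, with 1 point per animal and bars for the interval bounds of each value that the authors deposited. Oaz1 (242 and 208 TPM) and Oaz2 (73.1 and 72.0 TPM) stand above the other 8 genes, and Odc1 (34.9 and 18.0 TPM) shows the widest gap between animals.

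Among the enzymes of synthesis, Odc1 had 34.9 TPM in animal 1, against 18.0 in animal 2 (26.5 ± 11.9 TPM, SD, n = 2). These levels rest on 2277 and 1306 expected counts, reads that the authors' model assigned to the gene. Amd1 had 31.0 TPM in animal 1, against 34.0 in animal 2, and Amd2 had 11.5 and 12.8 TPM. Odc1 was thus above Amd1 in animal 1 and below it in animal 2, while Amd1 was above Amd2 in both. Srm, spermidine synthase, had 6.50 TPM in animal 1, against 4.32 in animal 2. Sms, spermine synthase, had 20.2 and 14.0 TPM. Spermine synthase RNA thus exceeded spermidine synthase RNA in each animal, and the ranges of these genes did not overlap.

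In the breakdown arm, Smox had 18.5 TPM in animal 1, against 18.4 in animal 2, a spread of 0.113 TPM (SD) on 1123 and 1178 reads. Sat1 had 8.46 TPM in animal 1, against 6.61 in animal 2. Smox lay above Sat1 in both animals. Of the regulators of Odc1, Oaz1 had 242 TPM in animal 1, against 208 in animal 2, on 6227 and 5720 reads. Oaz2 had 73.1 and 72.0 TPM, and Azin1 had 17.1 and 14.2 TPM. The level of Azin1 was within the range of Sms, and below Odc1, Smox and both antizymes in each animal.

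Ratios between genes within an animal were compared as log2 of TPM with 0.1 added to each, and called larger than the spread where the mean was more than 2 SD from 0 and both animals had 1 sign. Of 9 ratios between chosen partners (copies, enzymes or regulators of the pathway), 7 met this rule. The share of all gene pairs that would meet it was not computed, so this count describes these pairs only. Odc1 over its inhibitor Oaz1 gave -2.79 in animal 1 and -3.52 in animal 2 (mean -3.15 ± 0.52), an 8.89-fold lower level. Azin1 over Oaz1 gave -3.81 and -3.86 (mean -3.83 ± 0.03), or 14.3-fold lower. The target of Oaz1 and its inhibitor were thus far below it in TPM in each animal. Oaz1 over Oaz2 averaged 1.62 ± 0.14, Srm over Sms -1.65 ± 0.04 and Amd1 over Amd2 1.41 ± 0.02. Sat1 averaged -1.29 ± 0.24 over Smox and -1.16 ± 0.12 over Sms, so Sat1 RNA was the lower of each pair. A further table of transcript estimates was deposited for each animal, here called the second table, and there Sat1 over Smox missed the rule at -0.81 ± 0.43. The remaining pair of ratios involved Odc1 and missed the rule: Odc1 over Azin1 gave 1.02 in animal 1 and 0.34 in animal 2, and Amd1 plus Amd2 over Odc1 gave 0.28 and 1.37. Odc1 over Azin1 met the rule in the second table, at 0.73 ± 0.23.

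Ordered by mean TPM, the genes ran Oaz1, Oaz2, Amd1, Odc1, Smox, Sms, Azin1, Amd2, Sat1 and Srm. Of the 9 neighbouring pairs in this order, 3 differed by more than the spread: Oaz1 over Oaz2, Oaz2 over Amd1 (1.16 ± 0.11) and Sat1 over Srm (0.49 ± 0.16). The 6 other pairs, from Amd1 and Odc1 down to Amd2 and Sat1, did not, with mean log2 ratios of 0.11 to 0.69. The rule was thus not met for these neighbours, whereas it was for some genes further apart in the order, such as Amd1 over Amd2 and Sat1 under Smox and Sms above. The order was taken from these same levels, so the neighbour ratios describe the 2 libraries only.

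No gene of the 10 was 2-fold or more apart between the animals, and Odc1 came closest. In log2 of expected counts scaled by TMM (trimmed mean of M-values), Odc1 was at 0.78 in animal 1 over animal 2 (95% counting interval 0.68 to 0.88), which is 1.71-fold. The TPM of Odc1 given above lay further apart in fold than these counts, and than its TPM in the second table (61.2 and 35.5). Among the 10872 genes whose mean count was at least 100, 4.87% were at least as far apart as Odc1. At 2-fold or more, 2.18% of these genes were higher and 0.791% lower in animal 1. Srm followed at 0.55 (0.28 to 0.82) on only 288 and 193 reads, and 8.95% of genes were as far apart. Sms was at 0.35, Azin1 at 0.27, Sat1 at 0.24 and Oaz1 at 0.10. The interval of Sat1 reached below 0 (-0.003 to 0.47). Oaz2 was at -0.05 and Smox at -0.09, and both of their intervals held 0. Amd1 was at -0.21 (-0.27 to -0.14) and Amd2 at -0.27 (-0.38 to -0.17), so both decarboxylase copies were slightly lower in animal 1 while Odc1 was higher. Of the 10872 genes, 35.8% were at least as far apart as Amd1 and 25.4% as Amd2. The copies also share reads, so their values are not independent. The median of the 10 genes was 0.17, and that of all 10872 genes was -0.02. With ERCC spike-ins as the scale, the median of all genes moved to -0.22 and Oaz1 changed sign (-0.10). Library size alone moved that median to 0.09, and Oaz2 (0.06) and Smox (0.02) changed sign.

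**Figure D2:**
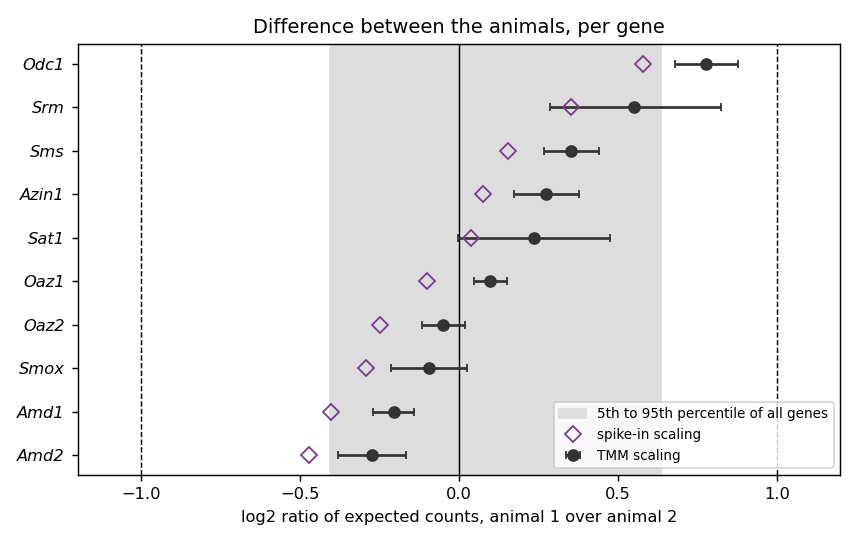
Log2 ratio of expected counts, animal 1 over animal 2, with TMM scaling (filled points with 95% counting intervals) and spike-in scaling (open diamonds). The grey band spans the 5th to 95th percentile of the 10872 genes whose mean count was at least 100 (-0.41 to 0.64), dashed lines mark 2-fold, and Odc1 (0.78) is the 1 gene that lies outside the band with TMM scaling.

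The libraries also stood apart in their markers of cell types, beside which these differences have to be read. The 8 markers of fast fibres, which make up most of this muscle, summed to 68595 TPM in animal 1, against 65460 in animal 2, with none 2-fold apart. The 6 slow fibre markers summed to 484 and 2666 TPM and all 6 were 2-fold or more lower in animal 1. Adipocyte markers summed to 579 TPM in animal 1, against 35.1 in animal 2 (6 of 6 higher in animal 1), and Schwann cell markers to 245 and 33.0 TPM (5 of 5 with enough reads higher). None of these markers was at 0 in either animal, and the lowest was Mag at 1.09 and 0.08 TPM. Fibroblast markers summed to 975 and 698 TPM (1 of 5 was 2-fold higher in animal 1), tenocyte markers to 119 and 213 (1 of 5 lower) and endothelial markers to 69.9 and 44.1 (1 of 4 higher). Among lists with none 2-fold apart, macrophage markers summed to 42.3 and 26.6 TPM, satellite cell to 26.0 and 36.5, erythroid to 166 and 219.9, and markers of dividing cells to 8.55 and 8.27. In these lists 4 of 5, 3 of 4, 2 of 3 and 1 of 3 markers, in that order, had enough reads. Most of the satellite cell sum was Sdc4 (23.8 and 34.2 TPM), and most of the dividing cell sum was Pcna (8.4 and 8.2 TPM). Those 2 sums are therefore mainly levels of 1 gene each. The part of these cell types in the levels of Odc1, Srm or Sms was not tested. In bulk tissue, fewer cells of a type and less RNA per cell cannot be told apart.

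Several of the genes share sequence with other genes, which limits how surely reads can be assigned. Of all stretches of 100 bases in Amd1-201, 76.4% also occur in transcripts of other genes, mainly Amd2, and 72.9% of those in Amd2-201 do. This leaves 732 windows that only Amd1 holds and 846 that only Amd2 holds. The posterior SD of the deposited counts, a measure of this ambiguity, was 58.8 and 58.7 reads for Amd1 (1.62% and 1.43% of its count) and 53.6 and 53.9 reads for Amd2 (4.00% and 3.36%). These were far below the gap between the copies, 3611 against 1347 reads in animal 1 and 4093 against 1601 in animal 2. The processed copy Amd-ps3 held a further 487 and 473 reads. For Smox, Azin1 and Srm no window of the leading transcript was shared and the posterior SD was 0.

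For Oaz1, 43.0% of the windows of Oaz1-207 and 94.3% of those of the short Oaz1-205 also occur in the pseudogene Oaz1-ps. The gene table gave Oaz1-ps 495 and 427 reads, 7.96% and 7.47% of the count of Oaz1, whereas the second table listed it at 0 in both animals. In Sms-201, 27.7% of windows occur elsewhere, and Sms-ps held 308 and 303 reads in the gene table and 73.2 and 110.2 in the second. The Odc1-201 transcript shared 19.6% of its windows with 8 other genes, which together held 180 and 95.3 reads. For Oaz2 and Sat1 the shared parts were 3.33% and 0.376%. A small nucleolar RNA gene inside Odc1, Gm22748, was counted apart with 29 and 19 reads. With each copy's reads added to the gene it is named for, and those of the Amd copies to Amd1 alone, the same 7 of 9 partner ratios exceeded the spread, and Amd1 over Amd2 averaged 1.58.

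The antizymes drew different leading transcripts from the 2 sets of transcript estimates, and the models in question differ at the frameshift site printed above. In the first table (RSEM layout), Oaz1-205 with the unbroken site held 49.2% of Oaz1 TPM in animal 1 and 47.3% in animal 2. Oaz1-201, with 4 bases left out, held 39.2% and 35.4%, and Oaz1-207, with 1 base left out, held 5.72% and 10.5%. In the second table (kallisto layout), Oaz1-207 led with 56.1% and 60.8%, Oaz1-205 held 31.5% and 32.6%, and Oaz1-201 was at or near 0. Summed over transcripts, the unbroken site held 49.6% and 47.7% of Oaz1 TPM in the first table and 34.7% and 35.6% in the second. Oaz1-205 is only 538 nt long, and it took 31.6% and 30.2% of the reads in the first table and 11.5% and 11.5% in the second.

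Oaz2 showed the same kind of split, and in the first table alone it also moved between the animals. In the first table Oaz2-206, with 1 base left out, held 62.6% of Oaz2 TPM in animal 1 and 16.4% in animal 2. Oaz2-201, which differs from it by the 3 further bases left out, held 0.725% and 44.0%. Their sum was 63.4% in animal 1 and 60.4% in animal 2, so the total moved little while its division between the models turned over. The deposited posterior SD was 591 and 678 reads for Oaz2-206, on 3004 and 825 expected counts. For Oaz2-201 it was 590 and 678 reads, on 34.75 and 2208 expected counts, so in animal 1 it exceeded the count itself. The division between these models is thus uncertain in the first table. In the second table Oaz2-201 held 48.2% and 46.6% and Oaz2-206 held 1.42% and 2.02%. Transcripts with the unbroken site held 36.2% and 38.5% of Oaz2 TPM in the first table and 49.5% and 50.1% in the second. As background, the shift is known to occur in the ribosome, during translation. How reads over the site were placed on such models was not tested.

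**Figure D3:**
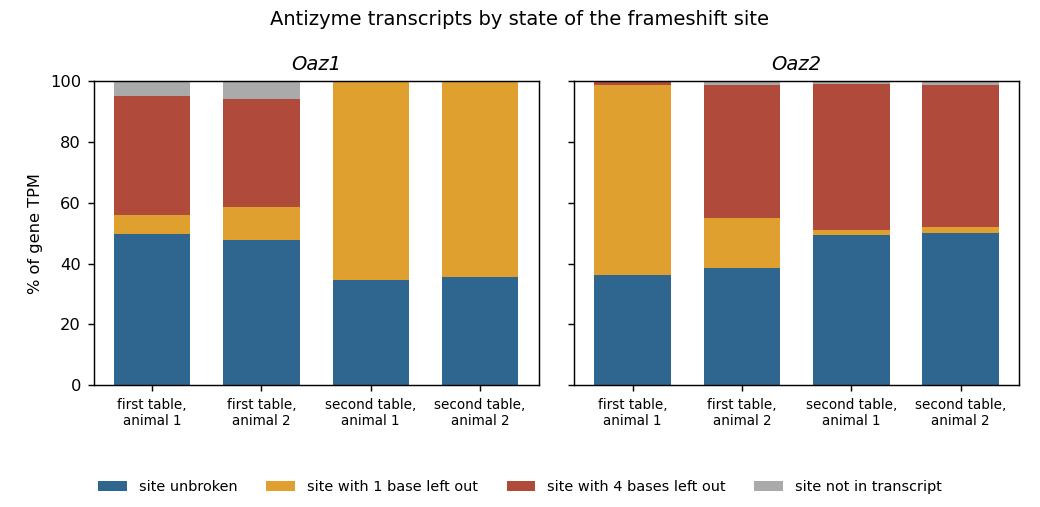
Percent of Oaz1 and Oaz2 TPM by the state of the frameshift site in the transcript model, for each animal in each table (stacked bars, 100% per gene). In the first table the Oaz2 models with 1 base left out held 62.6% in animal 1 and 16.4% in animal 2, while the unbroken share was 36.2% and 38.5%.

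Transcripts marked as retained introns or as targets of nonsense-mediated decay (NMD, the removal of RNA with an early stop codon) made up different shares of each gene. For long transcripts, the first table took a median of 99 nt off the length and the second 338 and 344 nt. The amount taken off short transcripts was not summarised here. A read on a short transcript such as Odc1-204 counted for more TPM in the second table, so shares of reads are given beside some shares of TPM. Odc1-201, the protein-coding form, held 68.7% and 76.7% of Odc1 TPM in the first table and 58.6% and 54.8% in the second. The retained-intron Odc1-204 (561 nt) held 17.5% and 12.8%, against 31.2% and 38.8% in the second table, but only 3.27% to 7.14% of Odc1 reads. Odc1-205, an NMD form, held 9.31% and 5.98%, with 7.41% and 5.05% in the second. The coding form led Odc1 in both animals and both tables.

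Sat1 had the largest retained-intron share of the 10 genes in each animal and table, and an NMD form made by an extra exon. Retained-intron forms summed to 28.5% of Sat1 TPM in animal 1 and 46.1% in animal 2 in the first table, and to 48.8% and 53.4% in the second. Of these, Sat1-203 held 7.46% and 16.2% in the first table and 6.87% and 13.6% in the second. Sat1-204 (525 nt) held 7.46% and 4.68%, with 28.3% and 13.3% in the second table, and Sat1-205 held 9.70% and 15.6%, with 9.12% and 13.4%. By reads, Sat1-204 held 3.15% and 1.98% of Sat1, with 8.56% and 3.45% in the second table. Sat1-201, the coding form, held 65.6% and 45.2%, with 45.7% and 36.5% in the second table. The NMD form Sat1-207 held 5.92% and 8.76%, on 22.1 and 27.1 reads, and 5.52% and 10.1% in the second table. Its extra exon of 110 nt lies at chrX:155215121-155215230 on the minus strand, and splicing of this exon is known to fall when polyamines are high. The line gives its first 30 bases, from chrX:155215201-155215230, with the in-frame stop codon in capitals.
Sat1-207: gttacagtctcTAGcttcgccatgtacatg
This stop begins at base 12 of the exon. The share of Sat1-201 was higher in animal 1 in both tables, and with 2 animals and 322 and 269 reads in the gene this is a description only.

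Sms, on the X chromosome like Sat1, had an NMD form that leaves out an exon of the coding transcript. Sms-201 held 83.0% of Sms TPM in animal 1 and 89.4% in animal 2, with 72.9% and 78.2% in the second table. The exon-skipping Sms-204 held 15.4% and 9.0%, and 25.1% and 19.0% in the second table, or 3.78% to 10.7% of Sms reads. The skipped exon has 115 nt, which is no multiple of 3, and lies at chrX:157455994-157456108 on the minus strand. It is shown because Sms-204 lacks it, but it is not the only difference, as Sms-204 has 1540 nt and Sms-201 3717 nt. The deposited posterior SD of Sms-204 was 54.4 and 44.4 reads, on 169 and 72.4 expected counts. Its share is therefore no measured rate of skipping of this exon.
Sms-201: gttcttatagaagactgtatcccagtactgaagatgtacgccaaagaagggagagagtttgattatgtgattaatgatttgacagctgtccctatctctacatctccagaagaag

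Smox has 17 annotated transcripts, the most of the 10 genes. Smox-201 held 45.0% and 39.1% of its TPM in the first table and 71.0% and 65.0% in the second. Smox-217, an NMD form, held 16.8% and 17.8% in the first table and was listed at 0 in the second, as was the retained-intron Smox-213 (7.99% and 10.8% in the first). The NMD form Smox-216 held 5.94% and 5.55%, with 1.30% and 10.6% in the second. Azin1 was led by Azin1-207 (747 nt), with 35.4% and 39.1% of TPM but 8.54% and 10.3% of reads. The longer Azin1-203 (4217 nt) held 35.4% and 27.3% of TPM and 54.3% and 45.6% of reads. The NMD form Azin1-205 held 4.43% and 6.89%, with 6.23% and 12.8% in the second table. The retained-intron Azin1-209 (591 nt) was listed at 0 in the first table. In the second it held 28.8% and 20.6% of TPM, but only 4.22% and 2.85% of reads. Oaz2-205, a retained-intron form, held 6.76% and 7.24%, but 0.298% and 0.647% in the second table. Srm-201 held 93.5% and 87.3% of Srm TPM, with 88.9% and 71.7% in the second table. By reads it held 98.6% and 97.0%, with 98.9% and 96.6% in the second table. The short Srm-202 (362 nt) had only 3 and 6 reads there. Amd1-201 held 99.4% and 95.6% of Amd1, and Amd2 has a single transcript. In all, 8 of the 10 genes had the same leading transcript in both tables, and Oaz1 and Oaz2 did not.

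**Figure D4:**
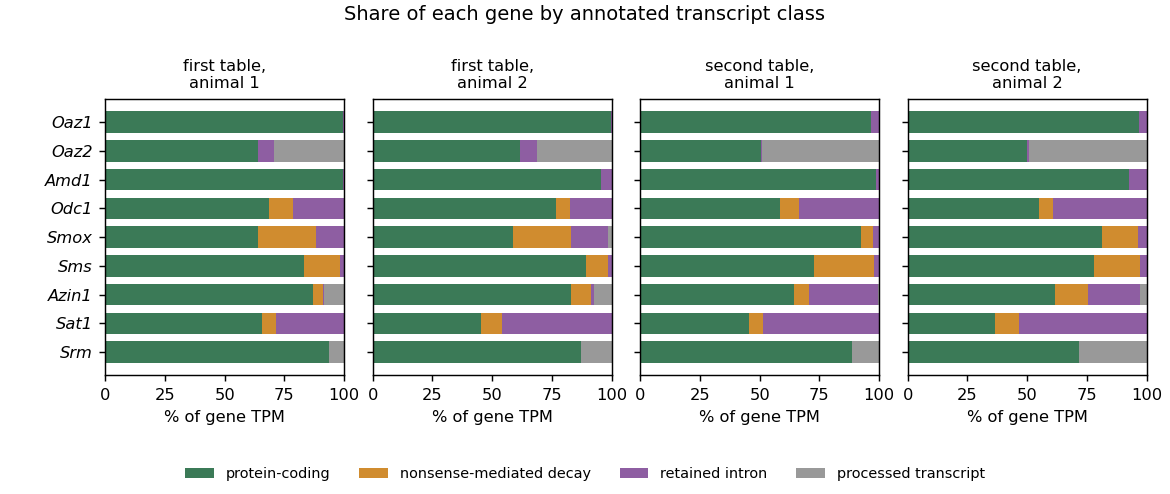
Percent of each gene's TPM by annotated class of transcript, for each animal in each table (stacked bars, 100% per gene, Amd2 omitted as it has a single transcript). Sat1 shows the largest retained-intron share in every panel (28.5% and 46.1% in the first table, 48.8% and 53.4% in the second), and Oaz1 and Amd1 are almost wholly protein-coding.

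Summed per gene, the tables were closer than for single transcripts. With both scaled to nuclear protein-coding genes, none of the 10 genes was 2-fold or more apart between the tables, against 1.15% of 10227 detected genes. Log2 of the second over the first table averaged -0.40 ± 0.08 for Smox, -0.24 ± 0.01 for Oaz1 and 0.21 ± 0.01 for Oaz2, and lay between -0.20 and 0.21 for all genes but Smox and Oaz1.

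Around these 10 genes, 33 further genes of neighbouring steps were examined, and 22 of them reached 1 TPM in both animals. Of all protein-coding genes 46.5% did, a share that the counts per list below have to be read beside. Of the enzymes that feed S-adenosylmethionine and recycle its by-product, 8 of 9 were detected, at a median of 17.5 TPM over the list. Mat2a, which makes S-adenosylmethionine in most tissues, had 44.7 TPM in animal 1, against 46.6 in animal 2, and its regulatory partner Mat2b had 23.5 and 22.1 TPM. In the salvage of methylthioadenosine, Mtap had 5.38 and 5.0 TPM, Mri1 6.4 and 5.69, Apip 16.9 and 18.2, Enoph1 3.73 and 3.23, and Adi1 22.1 and 21.3 TPM. Got1, a transaminase with many other uses, had 255 and 284 TPM. The liver form Mat1a was under 1 TPM.

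Of 7 genes of ornithine and arginine metabolism, 4 were detected. Oat, which makes ornithine or removes it in mitochondria, had 60.8 TPM in animal 1, against 57.1 in animal 2. The arginine carriers Slc7a2 and Slc7a1 had 11.6 and 12.6 TPM, and 1.08 and 1.09 TPM. Arg1, Arg2 and Otc, which also make or use ornithine, were under 1 TPM. Gatm, which makes ornithine as a by-product of creatine synthesis, had 4.65 TPM in animal 1, against 1.60 in animal 2. At a log2 of 1.45 (95% counting interval 1.17 to 1.74, 401 and 144 reads) it was the 1 gene 2-fold or more apart among the 22 whose mean count was at least 100, and it was higher in animal 1, as were 2.18% of all such genes. The marker differences above accompany this value too, and their part in it was not tested.

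For polyamine transport, 5 of 8 genes were detected. Slc3a2, a chain shared by amino acid carriers and linked to polyamine export, had 18.9 TPM in animal 1, against 12.6 in animal 2 (log2 0.52, 0.39 to 0.66). The lysosomal polyamine exporter Atp13a2 had 8.78 and 8.49 TPM, and its relative Atp13a3 10.8 and 10.9 TPM. Slc47a1 had 8.03 and 8.75 TPM, and the vesicular polyamine transporter Slc18b1 4.09 and 2.22 TPM. The gap in Slc18b1 was not in its reads, 202 and 217, nor in the second table, at 3.50 and 3.68 TPM. The organic cation carriers Slc22a2 and Slc22a3 did not reach 1 TPM in both animals.

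Spermidine is also the donor for hypusine, a modified lysine in the translation factor Eif5a. Eif5a had 154 TPM in animal 1, against 148 in animal 2, and the enzymes Dhps and Dohh had 9.49 and 10.1 TPM, and 16.4 and 13.7 TPM. The paralogue Eif5a2 was under 1 TPM. Of 5 other polyamine enzymes and regulators, Paox, which oxidises acetylated polyamines, had 1.66 and 1.84 TPM and Sat2 had 1.26 and 1.14 TPM. Satl1 and the testis antizyme Oaz3 were under 1 TPM, and Azin2 reached it in animal 1 only. Sat1 thus exceeded its relative Sat2 in both animals.

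**Figure D5:**
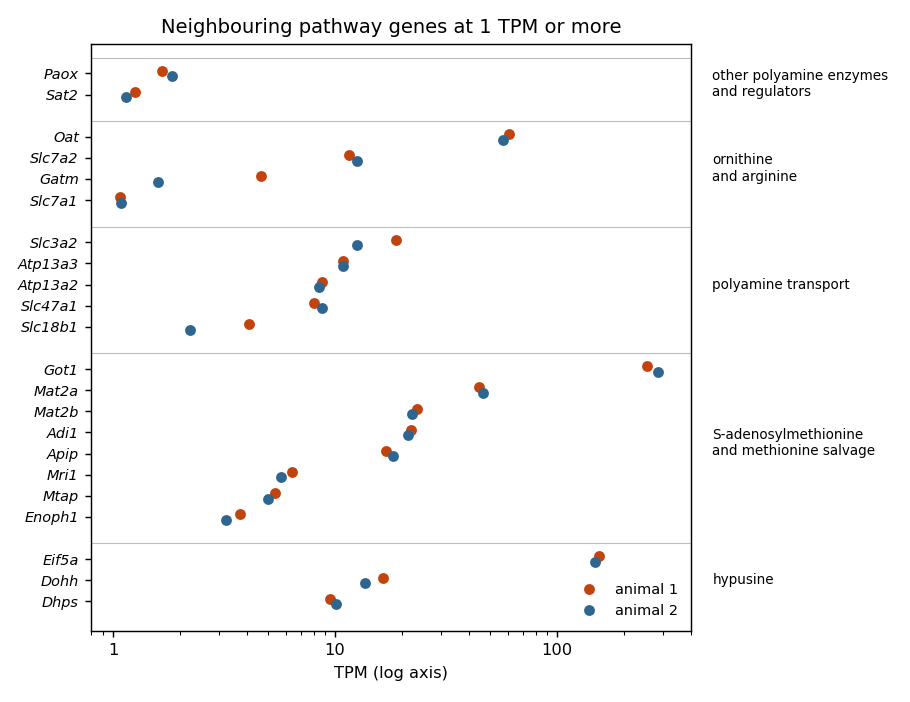
Levels of the 22 neighbouring genes at 1 TPM or more in both animals, on a log axis in TPM and grouped by list, with 1 point per animal. Got1 (255 and 284 TPM) and Eif5a (154 and 148 TPM) are highest, and Gatm (4.65 and 1.60 TPM) has the widest gap between animals.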

How the data were processed

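The authors deposited, per library, a gene table and a transcript table with expected counts and TPM, a posterior SD of each count and interval bounds of each TPM (a score with no fixed range) and each transcript's percent of its gene, all per the file headers. A second table of transcripts gives estimated counts beside TPM in the kallisto layout, per the file headers. Builds are mm10 and GENCODE M21. Tools, versions and strand: not given in the sources used here. CAST alleles can be lost on mm10, and this was not analysed here.

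Expected counts were scaled with edgeR 4.0.16 TMM factors (R 4.3.3), computed on rounded counts, and a prior count of 0.5. DESeq2 1.42.0, library size and spike-ins were alternatives. Spike-ins and 26248 unnamed rows (3 and 5 reads) were left out. The scaling was tested on simulated counts. Intervals are exact binomial at 95% and cover counting error only. Other steps used scipy 1.17.1, pandas 2.3.3 and Python 3.11.15, and figures matplotlib 3.10.9. The 10 genes, the lists of neighbouring genes and markers and all rules were chosen with earlier results of these data known. Named were all 10 genes, listed neighbours at 1 TPM or more in both animals, leading transcripts, and NMD or retained-intron transcripts at 5% or more of their gene in both animals in either table. Neighbours below that level are named without values (1 is not reported here), and genes of like pattern were not searched for, since 2 libraries give 1 difference. Sequences came from the GENCODE M21 transcripts. Windows of 100 bases were compared on the same strand, a step added after seeing the data.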

Additional observations from a re-analysis of the deposited data

How the results depend on the processing

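With detection at 5 TPM, 9 of the 10 genes stayed at or above it in both animals, and all 10 passed 1 TPM in the second table. The summed TPM was 432 as reported, 659 in the second table, 1146 when nuclear protein-coding genes alone set the scale, and 1080 in the second table on that scale (a setting chosen after seeing the data). Values on that scale are larger by construction, since other transcripts are left out of the total. On it the tables lay closer, at 1146 and 1080. Why 432 and 659 differ was not tested. With either animal left out, the summed TPM on the scale as reported was 402 and 463. No gene of the 10 became 2-fold apart between animals with DESeq2's median of ratios, library size, spike-ins, a prior count of 5, a lower filter or none, or the second table. Among all genes, a mean count of 10 or more put 5.74% of genes 2-fold higher and 1.87% lower in animal 1, and no filter 16.7% and 9.997%. Of 9 partner ratios, 7 exceeded the spread under every setting tried, a count with no share over all gene pairs beside it. They were not the same 7 in the second table, where Odc1 over Azin1 took the place of Sat1 over Smox. The same leading transcripts held for 8 genes in the second table, and for 9 with either animal left out. No paired analysis was possible because there is 1 group. Depth limits Srm and Sat1 most, at 193 to 322 reads.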
